A study of Mus musculus with 10 samples.

Results

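The genes described here are the solute carrier (Slc) membrane transporters expressed by naive mouse CD8+ T cells during the first 120 min of activation. They were taken by name: every gene of the deposited expression table whose symbol begins with Slc and a digit, which gave 172 of 12637 genes from 41 Slc families. The label holds for 164 of them, because 3 are pseudogenes (Slc2a4rg-ps, Slc39a1-ps and Slc22a13b-ps), 3 are genes on the strand opposite a transporter (Slc7a6os, Slc36a3os and Slc6a19os) and 2 encode proteins that bind a transporter (Slc9a3r1 and Slc4a1ap). The study profiled splenic CD8+ T cells of female C57Bl/6 mice aged 6 weeks, either wild type (WT) or Ikaros-Zn4-/-, which carry a homozygous deletion affecting zinc finger 4 of the transcription factor Ikaros (called mutant below). Cells were enriched by negative selection, sorted as CD8+, CD62L high and CD44 low or negative, and then lysed directly (0 min) or after 30 or 120 min on a plate carrying antibodies against CD3 and against CD28, which trigger the T cell receptor and a costimulatory receptor. Of the 10 libraries, each genotype contributed 2 without stimulation, 2 after 30 min and 1 after 120 min. No library came from cells held for 30 or 120 min without the antibodies. Changes with time therefore cannot be split between stimulation and incubation or handling. Nothing in the labels ties replicate libraries to different mice, and the p-values below reflect library-to-library spread alone, which may be technical.

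Solute carriers are proteins that let nutrients, ions, metals and metabolites cross the plasma membrane or the membranes of organelles, by facilitated diffusion, cotransport or exchange. Resting T cells take up little glucose and few amino acids, and activation raises the uptake of both through a small number of carriers, among them Glut1 and the heterodimer of the CD98 heavy chain with a light chain such as Lat1. Other families work inside the cell: the Slc25 carriers exchange metabolites across the inner mitochondrial membrane, and many Slc35 carriers bring nucleotide sugars into the endoplasmic reticulum and Golgi for glycosylation.

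Values are RPKM, reads scaled to transcript length (per kilobase) and to library depth, and so allow levels of different genes to be set side by side. The library depth recovered from the values ran from 4.50 to 13.3 M reads. The table holds only genes whose mean reached 1 RPKM in at least 1 of the 6 groups, a level that 125 of the 172 members reached in all 6 groups and 8 in 1 group only, so the counts below describe transporters that passed that floor and not all Slc genes. In 20 members at least 1 library rested on fewer than 10 reads. The library kit does not mark strand. More than 20% of the exon bases of Slc16a6 (22.5%), Slc33a1 (32.0%) and Slc3a1 (26.5%) are shared with genes on the opposite strand. Reads on those shared bases cannot be told apart from reads of the neighbouring genes. Slc39a1 and the pseudogene Slc39a1-ps are near-identical, and the split of reads between them is uncertain. The sorted cells carried CD8 T cell transcripts: Cd8a stood at 389.6 and 436 RPKM in WT and 511 and 456 RPKM in mutant cells at 0 min, and at 47.5 and 52.2 RPKM at 120 min. Ikzf1, which encodes Ikaros, read 134 to 171 RPKM in the WT libraries and 206 to 263 RPKM in the mutant libraries. These are whole-gene values that include sequence outside the deleted part, so they do not check the genotype labels.

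Before stimulation the transporters covered a wide range of levels. Averaged over the 4 libraries at 0 min, 4 members exceeded 100 RPKM, 55 lay between 10 and 100, 98 between 1 and 10 and 15 below 1, with a median of 6.23 RPKM against 6.63 RPKM over all genes of the table. The 10 highest members held 41.3% of the summed Slc RPKM. At the top stood Slc44a2, a choline transporter-like protein, at 169 and 177 RPKM in WT and 211 and 173 RPKM in mutant cells. Next came Slc12a7, the potassium-chloride cotransporter Kcc4, at 167 and 159.6 against 153 and 113 RPKM. Every library of Slc44a2 lay above every library of Slc12a7 at 0 min. Slc1a5, the glutamine transporter Asct2, was the leading amino acid carrier of resting cells, at 94.3 and 85.2 against 113 and 111 RPKM. Its mean did not pass the test at either later time (limma adjusted p = 0.824 at 30 min and 0.734 at 120 min), but at 120 min it was called higher after median-ratio scaling (log2 change 0.46, adjusted p = 0.0224).

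In RPKM, 14 of the 172 members rose within 30 min of activation, and 83 had fallen by 120 min (81 among the 164 transporters). The amino acid carrier Slc38a2, the glucose transporter Slc2a1 and the lactate carrier Slc16a1 changed most at 30 min. In the comparison of 30 with 0 min over both genotypes, 14 of 172 members rose and 22 fell past an adjusted p of 0.05 in limma, a linear model fitted to log2(RPKM + 1) of 12203 genes, and 19.0% of all genes tested were called (6.51% higher and 12.5% lower). At 120 min 41 rose and 83 fell, against 59.7% of all genes called (19.3% higher and 40.4% lower). From 30 to 120 min 33 rose and 64 fell, against 48.2% of all genes (16.9% higher and 31.3% lower), a total that was 54 without the mutant 120 min library. Members were thus called in 20.9%, 72.1% and 56.4% of cases in these comparisons. The shares over all genes given here are also the background for the counts by class below, where no further scaling is named. Counted in RPKM + 1, the called changes of more than 2-fold at 30 min were all increases (6 members and 0). At 120 min 16 called members had risen and 45 had fallen by more than 2-fold on that scale. A change of 2-fold in RPKM itself can fall short of 2-fold in RPKM + 1. The comparisons of 30 and of 120 min share the 0 min libraries and are not independent of each other.

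Most genes of the table lost RPKM over the time course, by a median of 0.13 at 30 min and 0.32 at 120 min on the log2 scale, so every change with time below is given relative to that median, as a relative log2 change of RPKM + 1 with the standard error (SE) of the limma fit, while the adjusted p tests the unshifted change. Adding 1 to each RPKM understates the change of low genes. The median member lost 0.17 at 30 min and 0.41 at 120 min. The split of calls depended on the scaling: after median-ratio scaling 20 members rose and 12 fell at 30 min, and 57 rose and 67 fell at 120 min, and after quantile normalization the splits were 19 and 13, and 52 and 53. Of all 12203 genes tested, 1118 rose and 836 fell at 30 min after median-ratio scaling, and 3650 rose and 3650 fell at 120 min. After quantile normalization these splits were 1025 and 1027, and 3411 and 3504. They are the background for the counts by class given after each scaling. Leaving out 1 library lowered the 36 calls at 30 min to between 16 and 22 for WT 0 min replicate 1 (20) or 2 (16), WT 30 min replicate 1 (19) or 2 (22), mutant 0 min replicate 1 (21) or 2 (20), or mutant 30 min replicate 1 (21). At 120 min there was 1 library per genotype, and the fit assumed that these vary like the replicated groups. In bulk RNA, fewer cells with a transcript and less of it per cell cannot be told apart.

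Amino acid carriers had the largest rise in summed RPKM of the classes. Of 18 measured members 3 rose and 3 fell at 30 min, and 7 rose and 6 fell at 120 min (9 and 6 after median-ratio scaling). Their summed level was 346 and 318 summed RPKM in WT against 372 and 343 RPKM in mutant cells at 0 min, 693 and 663 against 655 and 571 RPKM at 30 min, and 955 against 1238 RPKM at 120 min, so no 30 min library overlapped a 0 min library and no 120 min library overlapped a 30 min library. Without Slc38a2 the sum was 253 to 291 RPKM at 0 min, 289.9 to 328 RPKM at 30 min and 409 and 437 RPKM at 120 min, so that 0 and 30 min overlapped and only 120 min stood apart.

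Slc38a2 (ENSMUSG00000022462, chr15:96687392-96699730 in GRCm38), the sodium-coupled neutral amino acid transporter Snat2, moved most. It read 87.2 and 65.5 RPKM in WT against 84.4 and 51.6 RPKM in mutant cells at 0 min, 374 and 373 against 327 and 265 RPKM at 30 min, and 546 against 802 RPKM at 120 min. All 3 times were separate in both genotypes. The relative log2 change was 2.35 at 30 min (SE 0.18, limma adjusted p = 0.00131) and 3.53 at 120 min (SE 0.22, adjusted p = 5.73e-05). The further rise from 30 to 120 min (1.21, limma adjusted p = 0.00988) was not called without the mutant 120 min library (unshifted log2 change 0.55, adjusted p = 0.242). Its neighbour on chromosome 15, Slc38a1, which encodes the related transporter Snat1, behaved differently. It read 19.1 and 22.5 RPKM in WT against 17.05 and 16.4 RPKM in mutant cells at 0 min, 19.5 and 19.5 against 12.8 and 11.7 RPKM at 30 min, and 28.6 against 15.2 RPKM at 120 min. Its relative changes of -0.12 and 0.47 did not pass the test (limma adjusted p = 0.0880 and 0.251), although the later one did after median-ratio scaling (adjusted p = 0.00377).

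Both chains of the CD98 and Lat1 exchanger, which imports large neutral amino acids such as leucine, rose. Slc3a2, the heavy chain, read 45.6 and 43.6 RPKM in WT against 36.7 and 37.5 RPKM in mutant cells at 0 min, 95.9 and 89.3 against 83.2 and 64.2 RPKM at 30 min, and 125 against 128 RPKM at 120 min. Slc7a5, the light chain Lat1, read 13.96 and 14.5 RPKM in WT against 15.8 and 21.4 RPKM in mutant cells at 0 min, 33.5 and 25.6 against 30.5 and 26.98 RPKM at 30 min, and 68.6 against 89.8 RPKM at 120 min. In each gene the 3 times did not overlap. The heavy chain changed by 1.13 at 30 min and 1.93 at 120 min, and the light chain by 0.94 and 2.52 (limma adjusted p between 6.68e-05 and 0.0105 for these 4 changes). Slc7a5 rose further from 30 to 120 min (1.62, SE 0.16, adjusted p = 6.26e-04). Slc7a1, the cationic amino acid transporter Cat1, passed no test at 30 min (limma adjusted p = 0.478), with 11.2 and 12.3 RPKM at 0 min and 12.2 and 11.3 RPKM at 30 min in WT. It stood at 19.2 RPKM in WT and 16.2 RPKM in mutant cells at 120 min, a relative change of 0.79 (limma adjusted p = 0.00589). That call was lost without the WT 120 min library (adjusted p = 0.154). Other amino acid carriers fell. Slc38a7, a lysosomal carrier chosen after its values were seen, read 4.20 and 3.99 RPKM in WT against 3.95 and 4.82 RPKM in mutant cells at 0 min, 2.21 and 2.69 against 2.14 and 3.47 RPKM at 30 min, and 1.31 against 1.39 RPKM at 120 min, with every 30 min library below every 0 min library and both 120 min libraries lower still. Its change at 120 min was -0.84 (limma adjusted p = 0.00149).

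Carriers of sugar and lactate were also split. Slc2a1 (ENSMUSG00000028645, chr4:119108711-119137983), the glucose transporter Glut1, read 15.1 and 14.4 RPKM in WT against 15.4 and 14.9 RPKM in mutant cells at 0 min, 66.5 and 52.1 against 62.4 and 41.6 RPKM at 30 min, and 64.1 against 114 RPKM at 120 min. Every stimulated library lay above every 0 min library, but the 30 and 120 min values overlapped. Relative to all genes it changed by 1.94 at 30 min (SE 0.15, limma adjusted p = 0.00121) and by 2.75 at 120 min (SE 0.18, adjusted p = 6.67e-05). Slc2a3, the related transporter Glut3, read 12.5 and 11.8 RPKM in WT against 11.7 and 11.4 RPKM in mutant cells at 0 min, 15.1 and 13.8 against 13.5 and 15.6 RPKM at 30 min, and 12.96 against 23.5 RPKM at 120 min. It missed the threshold at 30 min (0.40, limma adjusted p = 0.0762) and was called higher there after median-ratio scaling (adjusted p = 0.0296) or quantile normalization (adjusted p = 0.0392). Its call at 120 min (0.84, adjusted p = 0.00491) rested on the mutant library and was lost without it (adjusted p = 0.690). Slc50a1, which encodes a sugar transporter of the Sweet family, fell. It read 55.4 and 51.3 RPKM in WT against 43.7 and 41.05 RPKM in mutant cells at 0 min, 35.1 and 38.4 against 28.8 and 37.02 RPKM at 30 min, and 8.58 against 7.86 RPKM at 120 min. This was a relative change of -2.08 at 120 min (SE 0.13, limma adjusted p = 3.70e-05).

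Slc16a1 (ENSMUSG00000032902, chr3:104638668-104658462) encodes Mct1, which carries lactate, pyruvate and other monocarboxylates with a proton. It read 13.6 and 10.3 RPKM in WT against 12.3 and 11.2 RPKM in mutant cells at 0 min, 54.1 and 46.97 against 36.3 and 33.3 RPKM at 30 min, and 55.3 against 77.2 RPKM at 120 min. The times did not overlap, and at 30 min both mutant libraries lay below both WT libraries. The relative change was 1.88 at 30 min (SE 0.11, limma adjusted p = 5.70e-04) and 2.69 at 120 min (SE 0.14, adjusted p = 3.70e-05). Slc16a5, a family member also called Mct6, moved the other way. It read 14.1 and 14.9 RPKM in WT against 27.7 and 24.97 RPKM in mutant cells at 0 min, 5.62 and 6.74 against 11.5 and 18.5 RPKM at 30 min, and 0.721 against 1.97 RPKM at 120 min. Within each genotype the values were lower at each later time, and over both genotypes the relative change was -0.83 at 30 min and -2.87 at 120 min (limma adjusted p = 0.00938 and 3.96e-05). Of the 6 monocarboxylate carriers 1 rose and 2 fell at 30 min, and 2 rose and 3 fell at 120 min. Slc16a3, which encodes Mct4, was not analysed here.

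**Figure D1:**
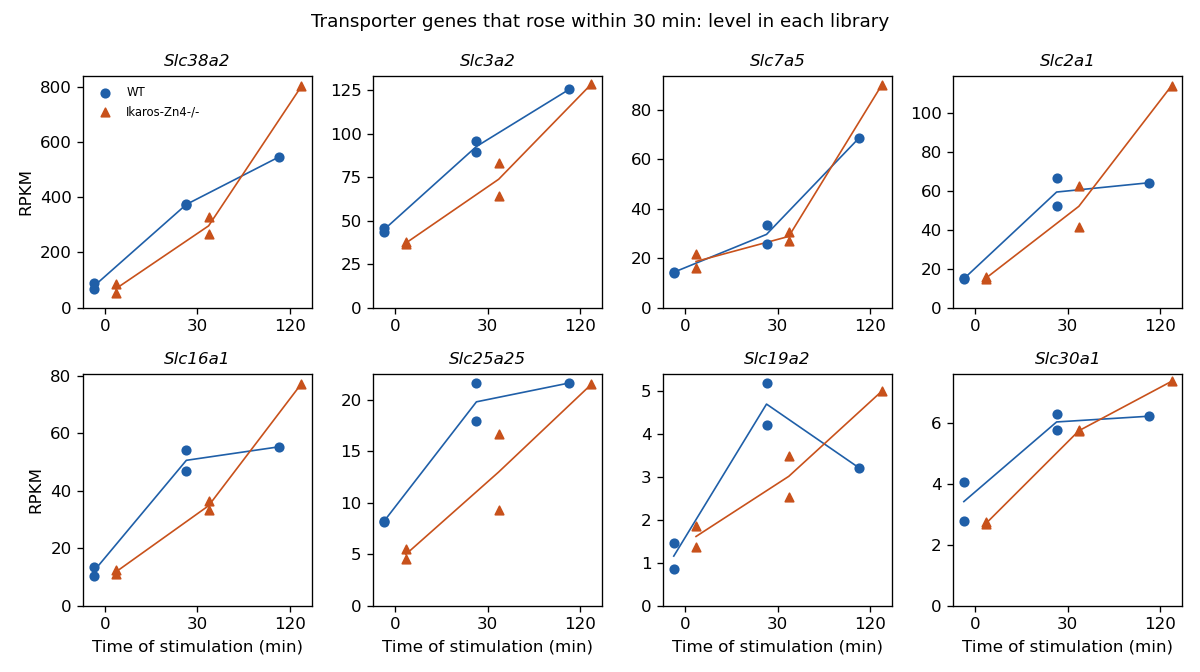
RPKM of 8 transporter genes called higher at 30 min, plotted against time of stimulation (min, evenly spaced categories) with 1 point per library (blue circles WT, orange triangles Ikaros-Zn4-/-) and lines through the group means. Slc38a2 lies between 51.6 and 87.2 RPKM at 0 min and at 546 and 802 RPKM at 120 min, while Slc19a2 and Slc30a1 stay below 8 RPKM.

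**Figure D2:**
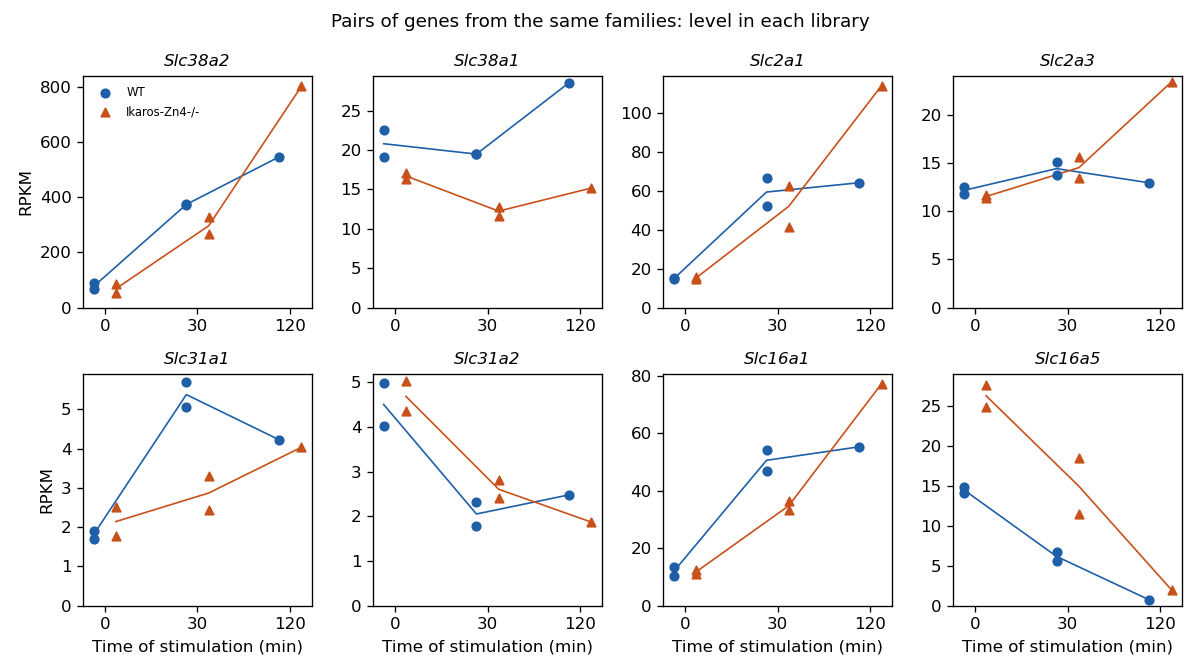
RPKM of 4 pairs of genes from the same families in each library, against time of stimulation (min), with lines through the group means. Slc38a2, Slc2a1, Slc31a1 and Slc16a1 were called higher at 30 min, whereas Slc31a2 and Slc16a5 were called lower and Slc38a1 and Slc2a3 were not called at that time, although Slc2a3 was called higher after median-ratio scaling or quantile normalization.

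The promoters of the early risers were searched for short motifs of transcription factors known to act on transporter genes, as a description only. Windows ran from 250 bases before to 50 bases after each transcript start in RefSeq (GRCm38.p6), and 127 of 172 members had an entry, with 169 windows. Both strands were read for the E-box CACGTG (bound by Myc and Mlx family proteins), the CRE TGACGTCA (Creb), the AP-1 site TGANTCA, the C/ebp-Atf composite element TGATGNAA (Atf4) and the metal response core TGCNCNC (Mtf1). The E-box lay in 14.79% of the members' windows and in 7.15% of all 32851 windows in the table. The CRE lay in 1.775% against 1.79%, AP-1 in 5.325% against 7.808%, the Atf4 element in 3.55% against 3.969% and the metal response core in 57.99% against 51.03%. Of the 14 members called higher at 30 min 13 had an entry, and of their 16 windows 1 held an E-box, 1 a CRE, 7 the metal response core and 0 the AP-1 or Atf4 letters in this window. The 3 windows below show those matches for a lactate carrier, a mitochondrial carrier and a zinc exporter that rose, read 5′ to 3′ on the gene's own strand, each with 1 kind of match in capitals. They are Slc16a1 (chr3:104638414-104638713, plus strand, E-box starting 200 bases before the start site), Slc25a25 (chr2:32424017-32424316, minus strand, CRE starting 150 bases before it) and Slc30a1 (chr1:191906531-191906830, plus strand, metal response core on the opposite strand at 2 places). The Slc16a1 window also holds the metal response core at 2 places on the opposite strand, left in lower case. In these windows no match overlapped another.
Slc16a1: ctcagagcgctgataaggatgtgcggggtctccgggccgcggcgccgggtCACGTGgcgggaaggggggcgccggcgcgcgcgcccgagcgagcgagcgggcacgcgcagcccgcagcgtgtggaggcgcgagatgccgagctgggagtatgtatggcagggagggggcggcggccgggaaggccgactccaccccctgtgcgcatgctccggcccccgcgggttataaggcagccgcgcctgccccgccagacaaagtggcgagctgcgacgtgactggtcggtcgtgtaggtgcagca
Slc25a25: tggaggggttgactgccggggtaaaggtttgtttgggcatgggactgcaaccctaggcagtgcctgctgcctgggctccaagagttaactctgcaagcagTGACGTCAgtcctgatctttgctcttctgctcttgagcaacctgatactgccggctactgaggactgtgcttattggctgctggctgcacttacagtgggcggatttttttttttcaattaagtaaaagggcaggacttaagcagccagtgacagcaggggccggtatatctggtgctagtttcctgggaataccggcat
Slc30a1: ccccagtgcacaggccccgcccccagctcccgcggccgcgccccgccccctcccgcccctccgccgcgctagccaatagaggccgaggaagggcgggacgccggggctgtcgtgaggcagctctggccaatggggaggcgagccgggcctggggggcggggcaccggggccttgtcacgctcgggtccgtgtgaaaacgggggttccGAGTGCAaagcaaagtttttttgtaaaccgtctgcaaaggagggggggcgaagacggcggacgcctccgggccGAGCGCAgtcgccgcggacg

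Mitochondrial carriers of the Slc25 family were the largest class, with 36 members. At 30 min 3 rose and 6 fell (5 and 2 after median-ratio scaling), and at 120 min 4 rose and 18 fell (7 and 13, or 6 and 9 after quantile normalization). Slc25a25, a calcium-regulated carrier that exchanges ATP-magnesium for phosphate, was the strongest riser. It read 8.12 and 8.21 RPKM in WT against 5.49 and 4.51 RPKM in mutant cells at 0 min, 21.7 and 17.99 against 16.7 and 9.32 RPKM at 30 min, and 21.7 against 21.5 RPKM at 120 min. Every stimulated library lay above every 0 min library, and the change was 1.31 at 30 min (SE 0.18, limma adjusted p = 0.00794) and 1.93 at 120 min (adjusted p = 7.09e-04). The phosphate carrier Slc25a3, which supplies phosphate for ATP synthesis, started far higher and rose early. It read 73.4 and 63.7 RPKM in WT against 69.4 and 64.7 RPKM in mutant cells at 0 min, 113 and 109.9 against 106 and 97.99 RPKM at 30 min, and 109 against 106 RPKM at 120 min. It changed by 0.78 at 30 min and 0.97 at 120 min (limma adjusted p = 0.00617 and 0.00184). The 30 and 120 min values overlapped.

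An abundant adenine nucleotide translocase, which exchanges ADP for ATP, was not called. This gene, Slc25a5, read 61.9 and 77.03 RPKM in WT against 81.3 and 107 RPKM in mutant cells at 0 min, 81.7 and 93.1 against 98.6 and 132 RPKM at 30 min, and 68.3 against 89.3 RPKM at 120 min, and passed no test against 0 min (limma adjusted p = 0.179 and 0.877). The largest falls of the class at 120 min were in a pair of genes. Slc25a11, the oxoglutarate carrier of the malate-aspartate shuttle, read 24.2 and 28.7 RPKM in WT against 27.7 and 22.7 RPKM in mutant cells at 0 min, 15.3 and 18.1 against 16.4 and 22.7 RPKM at 30 min, and 3.55 against 4.92 RPKM at 120 min. Slc25a45, a carrier of less settled function, read 21.4 and 24.6 RPKM in WT against 24.2 and 23.5 RPKM in mutant cells at 0 min, 13.1 and 19.5 against 14.3 and 21.2 RPKM at 30 min, and 3.20 against 1.76 RPKM at 120 min. Their relative changes at 120 min were -2.05 and -2.52 (limma adjusted p = 6.11e-05 and 6.24e-05). In both genes the 120 min libraries lay far below all others.

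Within the metal carrier families some genes rose and others fell. Among 16 zinc carriers 1 rose and 0 fell at 30 min, and 6 rose and 5 fell at 120 min (10 and 4 after median-ratio scaling). Slc30a1 (chr1:191906767-191913247), which encodes ZnT1, the zinc exporter of the plasma membrane, read 2.77 and 4.05 RPKM in WT against 2.73 and 2.67 RPKM in mutant cells at 0 min, 5.76 and 6.29 against 5.72 and 5.75 RPKM at 30 min, and 6.21 against 7.36 RPKM at 120 min. It changed by 0.91 at 30 min (SE 0.12, limma adjusted p = 0.00890) and 1.27 at 120 min (adjusted p = 0.00135), with no overlap between 0 min and later libraries. The Slc39 zinc importers were split at 120 min: Slc39a1, Slc39a4, Slc39a6 and Slc39a10 rose and Slc39a3, Slc39a11 and Slc39a13 fell. Slc39a1 (Zip1) read 7.21 and 11.9 RPKM in WT against 7.87 and 11.9 RPKM in mutant cells at 0 min, 11.3 and 15.3 against 12.9 and 12.5 RPKM at 30 min, and 36.5 against 36.4 RPKM at 120 min. Slc39a6 (Zip6) read 7.29 and 7.62 RPKM in WT against 4.51 and 5.56 RPKM in mutant cells at 0 min, 5.84 and 7.42 against 3.98 and 4.60 RPKM at 30 min, and 16.6 against 15.9 RPKM at 120 min. Their changes at 120 min were 2.15 and 1.59 (limma adjusted p = 5.77e-04 and 2.89e-04), whereas at 30 min neither passed the test (0.178 and 0.325).

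The copper carriers split within 30 min. Slc31a1, the high-affinity copper importer Ctr1, read 1.91 and 1.71 RPKM in WT against 2.52 and 1.76 RPKM in mutant cells at 0 min, 5.06 and 5.70 against 3.31 and 2.43 RPKM at 30 min, and 4.23 against 4.04 RPKM at 120 min. Slc31a2, its intracellular relative Ctr2, read 4.03 and 4.98 RPKM in WT against 4.35 and 5.02 RPKM in mutant cells at 0 min, 2.33 and 1.77 against 2.40 and 2.81 RPKM at 30 min, and 2.48 against 1.87 RPKM at 120 min. Slc31a1 rose by 0.87 (SE 0.14, limma adjusted p = 0.0145) and Slc31a2 changed by -0.62 (SE 0.13, adjusted p = 0.0108) at 30 min, although 1 mutant 30 min library of Slc31a1 lay inside the 0 min range. The first call was lost without WT 0 min replicate 2 (adjusted p = 0.0610) or WT 30 min replicate 2 (adjusted p = 0.0534), and the second without WT 0 min replicate 2 (adjusted p = 0.0508). At 120 min the changes were 1.11 and -0.50 (limma adjusted p = 0.00543 and 0.00331). Slc41a1, a magnesium transporter, rose by 120 min, with 11.3 to 13.7 RPKM at 0 min and 32.5 and 26.7 RPKM at 120 min (1.48, adjusted p = 1.87e-04). Slc11a2, the iron importer Dmt1, fell from 15.2 to 18.8 RPKM at 0 min to 8.05 and 7.32 RPKM at 120 min (-0.75, adjusted p = 1.84e-04).

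Of 7 vitamin and folate carriers 1 rose and 0 fell at 30 min, and 3 rose and 3 fell at 120 min. Slc23a3, an orphan relative of the vitamin C transporters, read 0.688 and 1.09 RPKM in WT against 1.00 and 0.205 RPKM in mutant cells at 0 min, 1.79 and 1.19 against 1.44 and 1.20 RPKM at 30 min, and 12.5 against 16.1 RPKM at 120 min. All 8 libraries at 0 and 30 min were below 2 RPKM and both 120 min libraries above 12 RPKM, a relative change of 3.47 (SE 0.24, limma adjusted p = 7.59e-05). Its group means at 0 min were under the 1 RPKM floor of the table, so Slc23a3 is listed only through the later groups. Slc23a2, the vitamin C transporter Svct2, rose at the same time, from 9.39 to 12.04 RPKM at 0 min to 21.5 and 27.4 RPKM (1.46, adjusted p = 1.70e-04). The thiamine transporter Slc19a2 was earlier. It read 1.46 and 0.850 RPKM in WT against 1.37 and 1.85 RPKM in mutant cells at 0 min, 5.17 and 4.21 against 3.49 and 2.53 RPKM at 30 min, and 3.20 against 4.98 RPKM at 120 min, and changed by 1.15 at 30 min (limma adjusted p = 0.00890). Its family member Slc19a1, the reduced folate carrier, fell by 120 min to 2.19 and 2.27 RPKM from 7.32 to 9.66 RPKM (-1.16, adjusted p = 2.66e-04). Slc52a2, a riboflavin transporter, fell too, to 1.27 and 1.41 RPKM from 6.83 to 9.73 RPKM (-1.64, adjusted p = 4.06e-05).

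Among carriers of the secretory pathway, lipids and nucleosides, more members were called lower than higher at 120 min. In RPKM the same held over all genes tested (40.4% lower and 19.3% higher). After median-ratio scaling it did not (3650 genes higher and 3650 lower), while the Slc35, lipid and nucleoside classes still had more falls than rises. That difference from all genes was not tested. Among 21 members of the Slc35 family, which serve mainly glycosylation, 2 rose and 3 fell at 30 min, and 3 rose and 12 fell at 120 min (3 and 10 after median-ratio scaling). Slc35c1, the Golgi GDP-fucose transporter, had the highest level of that family at 0 min and read 32.9 and 41.7 RPKM in WT against 34.3 and 45.02 RPKM in mutant cells at 0 min, 16.3 and 21.2 against 16.8 and 24.5 RPKM at 30 min, and 24.1 against 16.5 RPKM at 120 min. Its change at 30 min was -0.81 (SE 0.17, limma adjusted p = 0.0135), a call lost without WT 0 min replicate 2 (adjusted p = 0.0557) or WT 30 min replicate 1 (adjusted p = 0.0559). Slc35d1, which carries UDP-sugars into the endoplasmic reticulum, rose from 1.56 to 1.89 RPKM at 0 min to 6.38 and 4.64 RPKM at 120 min (1.58, adjusted p = 9.56e-04). Of 7 carriers of fatty acids, choline and acetyl-CoA, 0 rose and 5 fell at 120 min (1 and 4 after median-ratio scaling). Slc44a2 read 169 and 177 RPKM in WT against 211 and 173 RPKM in mutant cells at 0 min, 159 and 152 against 167 and 159 RPKM at 30 min, and 81.00 against 74.01 RPKM at 120 min, and changed by -0.90 at 120 min (limma adjusted p = 1.77e-04).

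Among 17 ion exchangers and cotransporters 0 were called at 30 min by limma (1 rose under median-ratio scaling), and 6 rose and 8 fell at 120 min (7 and 4 after that scaling). Slc12a7 (Kcc4), which exports potassium and chloride, read 167 and 159.6 RPKM in WT against 153 and 113 RPKM in mutant cells at 0 min, 119.9 and 103 against 129.8 and 96.1 RPKM at 30 min, and 75.5 against 37.97 RPKM at 120 min. Slc12a2 (Nkcc1), which imports them with sodium, read 1.63 and 2.31 RPKM in WT against 1.45 and 1.53 RPKM in mutant cells at 0 min, 1.79 and 1.84 against 1.30 and 1.25 RPKM at 30 min, and 5.11 against 6.45 RPKM at 120 min. Their changes at 120 min were opposite, -1.12 for the exporter and 1.63 for the importer (limma adjusted p = 4.74e-04 and 3.32e-04). The organellar sodium-proton exchanger Slc9a8 fell from 9.06 to 11.97 RPKM to 1.96 and 1.62 RPKM (-1.71, adjusted p = 1.21e-04). Of 4 nucleoside carriers 3 fell at 120 min. Slc28a2, the concentrative carrier of purine nucleosides Cnt2, read 34.7 and 33.4 RPKM in WT against 26.9 and 23.4 RPKM in mutant cells at 0 min, 28.7 and 27.9 against 19.01 and 19.7 RPKM at 30 min, and 7.76 against 3.36 RPKM at 120 min, a change of -1.98 at 120 min (SE 0.10, limma adjusted p = 3.23e-05).

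A few genes of smaller classes complete the picture. Slc20a1, the sodium-phosphate cotransporter Pit1, read 54.7 and 43.8 RPKM in WT against 65.6 and 53.8 RPKM in mutant cells at 0 min, 80.5 and 68.5 against 83.7 and 59.5 RPKM at 30 min, and 96.3 against 121 RPKM at 120 min, and rose by 1.31 at 120 min (limma adjusted p = 0.00292). Slc10a1, the bile acid transporter Ntcp of liver, was a low riser. It read 0.834 and 0.269 RPKM in WT against 0.0896 and 0 RPKM in mutant cells at 0 min, 1.91 and 2.77 against 2.57 and 2.59 RPKM at 30 min, and 0.740 against 1.69 RPKM at 120 min, with 1 mutant library listed at 0. All 30 min libraries lay above all others, and its changes were 1.58 from 0 to 30 min and -0.45 from 30 to 120 min (limma adjusted p = 0.00409 and 0.0366). At 120 min it was still called higher than at 0 min (1.09, adjusted p = 0.0168). Its values rest on 0 to 57.8 recovered reads per library. No 0 min value reached the 1 RPKM floor of the table, so Slc10a1 is listed only through stimulated groups, where it is high. Slc37a4, the glucose-6-phosphate transporter of the endoplasmic reticulum, fell early and stayed low. It read 11.2 and 11.99 RPKM in WT against 11.7 and 11.6 RPKM in mutant cells at 0 min, 6.54 and 5.53 against 5.06 and 6.58 RPKM at 30 min, and 4.16 against 5.58 RPKM at 120 min, with changes of -0.74 and -0.80 (limma adjusted p = 0.00466 and 4.20e-04).

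**Figure D3:**
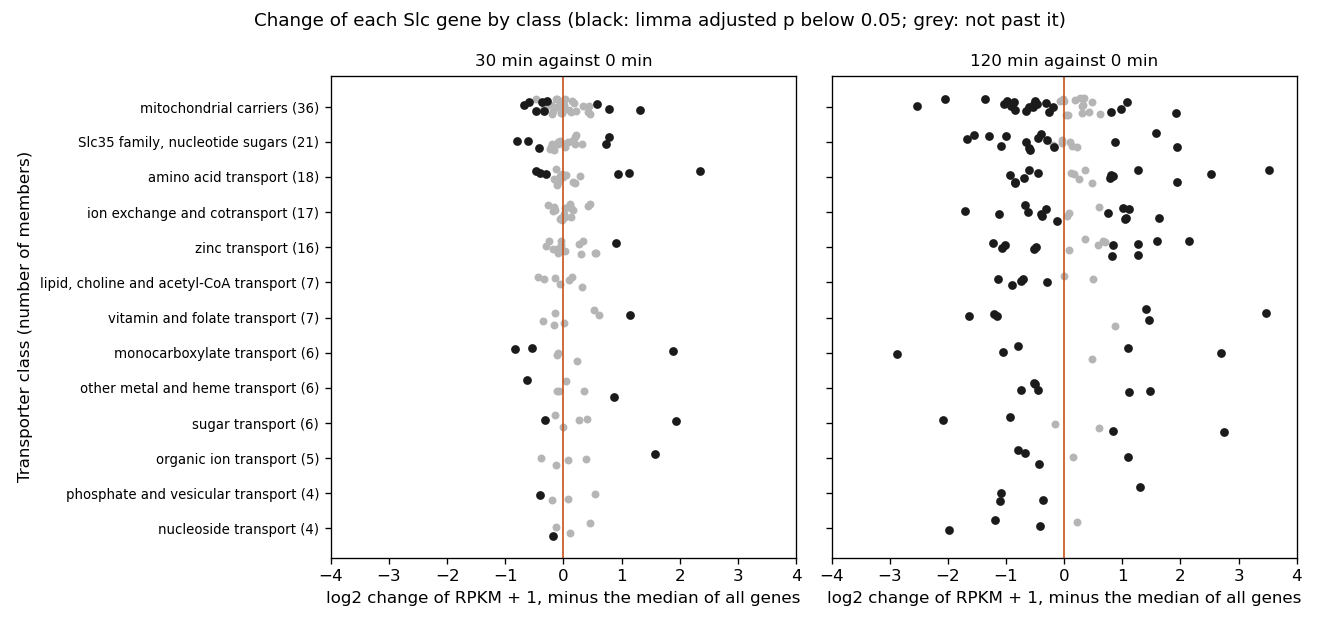
Relative log2 change of RPKM + 1 of each transporter gene (1 point per gene) by class, at 30 min (left) and 120 min (right) against 0 min, with 0 set to the median of all genes tested. Black points passed a limma adjusted p of 0.05 on the unshifted change and grey points did not; 13 classes with at least 4 members are drawn.

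**Figure D4:**
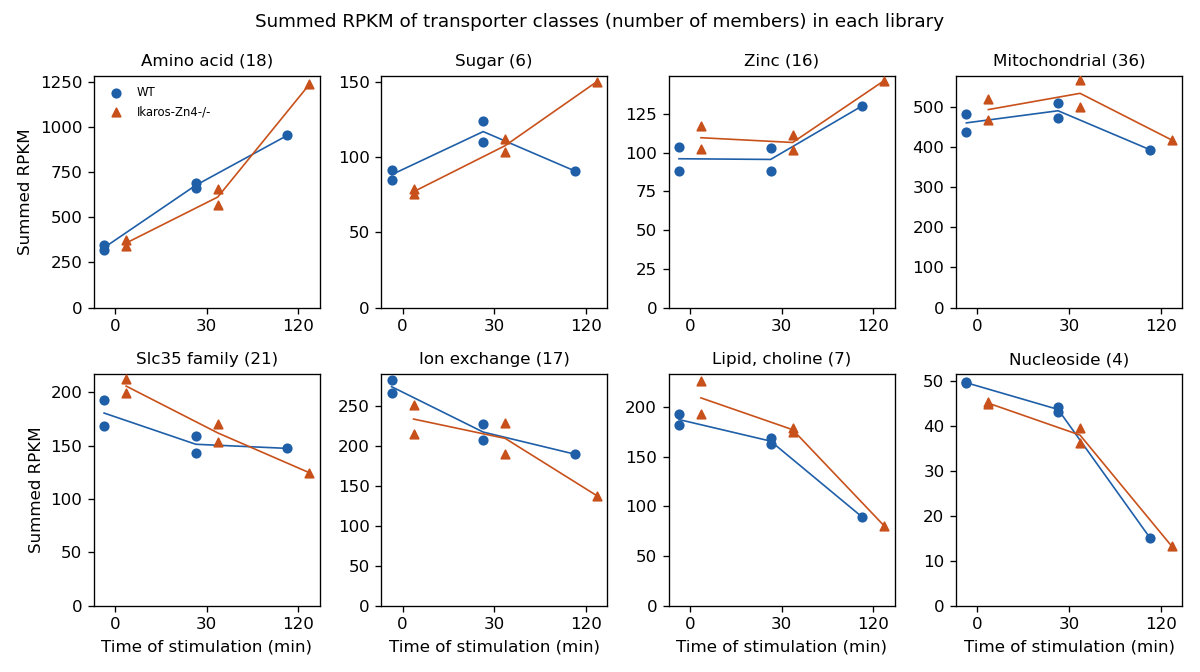
Summed RPKM of 8 transporter classes in each library against time of stimulation (min), with the number of members in brackets and lines through the group means. The amino acid sum rises from 318 to 372 RPKM at 0 min to 955 and 1238 RPKM at 120 min, while the nucleoside sum falls from 44.9 to 49.7 RPKM to 15.2 and 13.2 RPKM.

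Genes that sense amino acids or regulate transporters were read beside the carriers, from a list of 31 of which 30 were measured. At 30 min 7 rose and 4 fell, against 6.51% of all genes higher and 12.5% lower. At 120 min 11 rose and 10 fell, against 19.3% of all genes higher and 40.4% lower. After median-ratio scaling 16 rose and 7 fell, against 3650 higher and 3650 lower of all 12203 genes. Atf4, the transcription factor of the amino acid response, read 221 and 163 RPKM in WT against 178 and 129 RPKM in mutant cells at 0 min, 400.3 and 374 against 369 and 345 RPKM at 30 min, and 277 against 319.9 RPKM at 120 min. Sesn2, a leucine sensor that restrains mTORC1, read 2.25 and 2.85 RPKM in WT against 1.19 and 2.56 RPKM in mutant cells at 0 min, 13.3 and 11.8 against 8.52 and 5.94 RPKM at 30 min, and 19.4 against 26.4 RPKM at 120 min. Their changes at 30 min were 1.26 and 1.87 (limma adjusted p = 0.00565 and 0.00285). Arrdc3, an arrestin-like adaptor, rose at both times, with 2.32 at 30 min and 1.21 at 120 min (adjusted p = 0.00139 and 0.0121). Among subunits of the lysosomal Ragulator complex, Lamtor2 changed by -2.19 and Lamtor4 by -1.72 at 120 min (adjusted p = 3.87e-05 and 1.79e-04). Mtor itself passed no test (0.943 and 0.641).

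The second question of the design is whether the deletion in Ikaros went with other transporter levels. Over all times, with time in the model, 12 of 172 members were higher and 12 lower in mutant than in WT cells (limma adjusted p under 0.05), against 9.42% of all genes (6.19% higher and 3.24% lower). For 9 members the 5 mutant values exceeded the 5 WT values without overlap, as for 2.7% of all genes, and for 3 members they lay below them, as for 0.844%. At single times 2 members were higher and 2 lower at 0 min (2.47% of all genes called, 1.92% higher and 0.557% lower), and 3 higher and 4 lower at 30 min (2.61%, 2.01% higher and 0.606% lower). The total at 0 min was 1 or 2 without any 1 WT library of 0 or 30 min or either mutant 0 min library, and the total at 30 min was 1, 2 or 4 without any 1 of the 8 libraries of 0 and 30 min. At 120 min 1 library faced 1, so there was no test. Counted in RPKM + 1, 1 member (Slc43a1) was more than 2-fold higher, against 3.47% of all genes. On that scale 3 (Slc26a11, Slc6a19 and Slc28a2) were more than 2-fold lower, against 2.0% of all genes. Members can pass 2-fold in RPKM without being counted, such as Slc14a1 at 1.17 RPKM in WT and 0.272 RPKM in mutant cells.

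Slc43a1 (ENSMUSG00000027075, chr2:84838850-84863594), which encodes Lat3, a facilitative carrier of large neutral amino acids, differed most. It read 0.570 and 0.846 RPKM in WT against 13.8 and 14.1 RPKM in mutant cells at 0 min, 0.453 and 0.721 against 9.06 and 12.1 RPKM at 30 min, and 0.133 against 4.52 RPKM at 120 min. All WT values lay under the 1 RPKM floor of the table, so the gene is listed only through the mutant groups, where it is high. The mutant libraries lay above the WT libraries at every time, and in mutant cells both 30 min values were below the 0 min values and the 120 min value was the lowest. The log2 difference over all times was 2.86 (SE 0.15, limma adjusted p = 5.11e-06), and it passed the test at 0 min (3.14, adjusted p = 4.92e-04) and at 30 min (2.86, adjusted p = 7.43e-04). Its promoter window (chr2:84840073-84840372, plus strand, RefSeq on GRCm38.p6, around a transcript start inside the gene interval) is shown because Ikaros binds the letters TGGGAA, a motif added after the expression values were seen. Capitals mark the match, which is on the opposite strand (TTCCCA) and starts 130 bases before the start site, and the window also holds an E-box starting 64 bases before it. The motif lay in 22.49% of the members' windows and in 25.56% of all windows.
Slc43a1: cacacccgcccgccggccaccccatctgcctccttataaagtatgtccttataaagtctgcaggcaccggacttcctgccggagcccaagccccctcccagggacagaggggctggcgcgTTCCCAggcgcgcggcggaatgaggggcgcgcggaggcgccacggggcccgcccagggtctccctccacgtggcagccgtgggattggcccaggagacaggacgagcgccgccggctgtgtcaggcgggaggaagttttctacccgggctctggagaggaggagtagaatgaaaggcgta

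Other members higher in mutant cells belonged to several classes. Slc30a4, the vesicular zinc transporter ZnT4, read 2.72 and 3.12 RPKM in WT against 7.06 and 12.03 RPKM in mutant cells at 0 min, 3.87 and 4.58 against 7.41 and 11.2 RPKM at 30 min, and 5.44 against 7.93 RPKM at 120 min. Slc25a37, mitoferrin-1, which brings iron into mitochondria, read 7.44 and 8.11 RPKM in WT against 14.9 and 17.5 RPKM in mutant cells at 0 min, 6.25 and 7.25 against 13.3 and 15.7 RPKM at 30 min, and 5.90 against 8.86 RPKM at 120 min. Neither gene's genotypes overlapped at any time, and the log2 differences were 1.03 and 0.89 (limma adjusted p = 0.00815 and 8.24e-04). Slc16a5, whose values are given above, was higher in mutant cells at each time, by 0.93 (adjusted p = 0.00217). Slc7a7, a light chain of CD98 that carries cationic and neutral amino acids, read 0.443 to 0.893 RPKM in WT and 1.38 to 2.18 RPKM in mutant cells (0.75, adjusted p = 0.00546). This gene too is listed in the table only through its mutant groups. Slc1a5 (Asct2) was higher by 0.40 (adjusted p = 0.0144), with 81.1 to 95.3 RPKM in WT and 111 to 123 RPKM in mutant libraries.

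Members lower in mutant cells included a urea carrier and a sulfate carrier. Slc14a1, the urea transporter Ut-b, read 9.14 and 7.46 RPKM in WT against 2.63 and 2.89 RPKM in mutant cells at 0 min, 6.30 and 6.54 against 1.98 and 2.30 RPKM at 30 min, and 1.17 against 0.272 RPKM at 120 min. Slc26a11, an anion exchanger that carries sulfate and chloride, read 14.5 and 13.9 RPKM in WT against 7.96 and 6.70 RPKM in mutant cells at 0 min, 14.5 and 12.2 against 6.68 and 5.19 RPKM at 30 min, and 10.8 against 3.52 RPKM at 120 min. The differences were -1.17 and -1.05 (limma adjusted p = 2.16e-04 and 3.99e-04), and at each time the mutant libraries lay below the WT libraries. Slc6a19, the neutral amino acid transporter B0at1, read 12.2 and 16.2 RPKM in WT against 9.03 and 7.45 RPKM in mutant cells at 0 min, 10.1 and 10.6 against 5.35 and 4.78 RPKM at 30 min, and 6.15 against 2.34 RPKM at 120 min, a difference of -0.87 (SE 0.11, adjusted p = 0.00109). Slc38a1 (Snat1), whose values are given above, differed by -0.54 (adjusted p = 0.0106), its highest mutant library being below its lowest WT library. The amino acid, glucose and lactate carriers called higher at 30 min passed no genotype test: over all times the limma adjusted p was 0.786 for Slc38a2, 0.789 for Slc2a1, 0.698 for Slc16a1, 0.186 for Slc3a2 and 0.371 for Slc7a5.

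**Figure D5:**
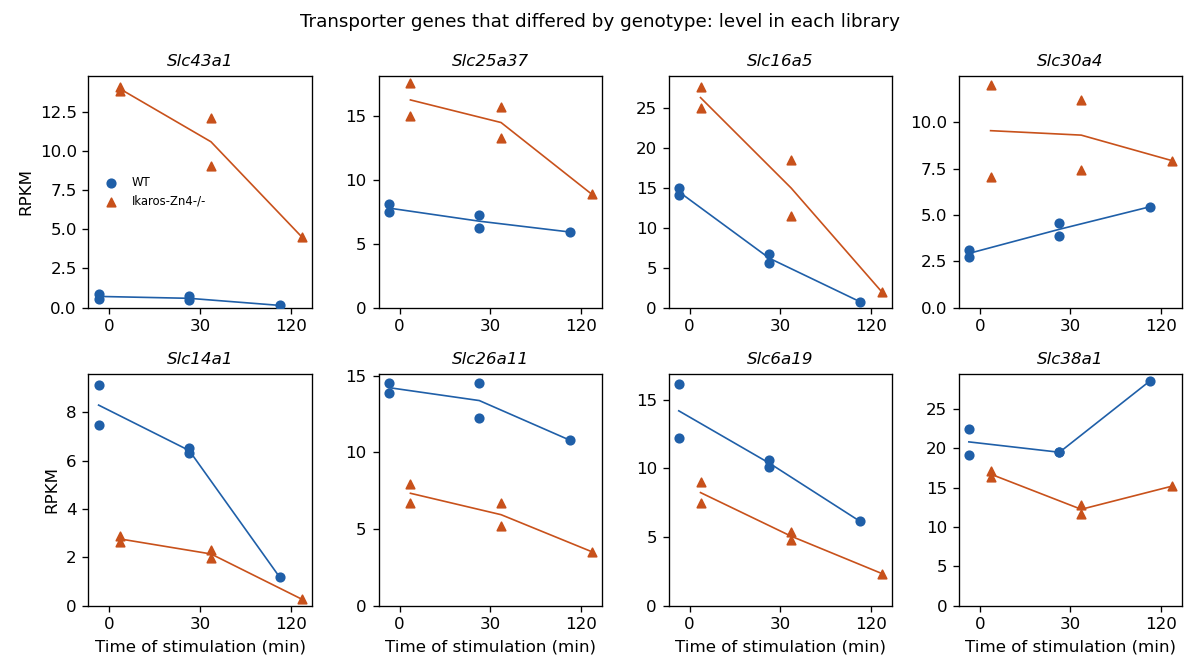
RPKM of 4 genes called higher (top) and 4 called lower (bottom) in Ikaros-Zn4-/- than in WT cells over all times, in each library against time of stimulation (min), with lines through the group means. Slc43a1 stays below 1 RPKM in all WT libraries and lies between 4.52 and 14.1 RPKM in the mutant libraries.

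Of the genes listed as markers of other leukocytes, some were called by genotype, and the rest were not called or were absent from the table. Of 8 B cell markers 3 were in the table, with a summed level of 9.61 to 16.1 RPKM in WT and 29.8 to 49.4 RPKM in mutant libraries. Cd74 was the member that was higher in mutant cells (0.793 to 3.04 RPKM in WT and 20.3 to 41.4 RPKM in mutant), Cd79b was lower in mutant cells (-0.83, limma adjusted p = 0.00239), and Cd79a stood at 0.152 to 6.26 RPKM over all libraries. Of 8 natural killer cell markers 3 were in the table, with 2.65 to 11.005 RPKM in WT and 13.6 to 35.5 RPKM in mutant libraries. Eomes and Gzma were called higher in mutant cells over all times, and Klrk1 was not called. Eomes read 1.90 to 9.39 RPKM in WT and 10.6 to 28.6 RPKM in mutant libraries. Of 8 myeloid markers 3 were in the table, with 8.14 to 24.8 RPKM in WT and 8.59 to 34.2 RPKM in mutant libraries. Only Itgam was called by genotype, higher in mutant cells (0.90, limma adjusted p = 0.00272). It read 0.164 to 0.307 RPKM in WT and 0.869 to 1.61 RPKM in mutant libraries, so it is in the table only through its mutant groups. Of 6 markers of CD4 and regulatory T cells 3 were in the table, with 5.06 to 36.1 RPKM in WT and 10.8 to 40.4 RPKM in mutant libraries, and Ikzf2 was higher in mutant cells (1.19, adjusted p = 1.61e-04). None of 10 erythroid and platelet markers was in the table. The part of these cell types or states in the transporter differences was not tested.

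The last comparison asks whether the genotypes responded differently. In WT alone 11 members rose and 8 fell at 30 min (6.03% of all genes called, 3.21% higher and 2.82% lower), and in mutant cells alone 5 rose and 2 fell (2.74% of all genes, 1.68% higher and 1.06% lower). The WT total was 3 without WT 0 min replicate 1, 1 without any other WT library of these times and 9 without either mutant 0 min library. The mutant total lay between 0 and 4 without any 1 of the 8 libraries of these times. The 5 that rose in mutant cells were Slc38a2, Slc2a1, Slc16a1, Slc3a2 and Slc10a1, each also called in WT. Tested directly, the difference between the responses passed the threshold for 0 of 172 members in limma (0.0% of all genes), with 8 at an unadjusted p under 0.05. The smallest of those p-values belonged to Slc52a2, which read 9.73 and 8.54 RPKM in WT against 7.53 and 6.83 RPKM in mutant cells at 0 min, 5.37 and 5.66 against 7.60 and 7.64 RPKM at 30 min, and 1.27 against 1.41 RPKM at 120 min. Its relative change at 30 min was -0.49 in WT and 0.19 in mutant cells, and the test of the difference gave an adjusted p of 0.876. Slc31a1 rose by 1.33 in WT (adjusted p = 0.0214) and changed by 0.42 in mutant cells (adjusted p = 0.398), with an adjusted p of 0.876 for the difference (limma). A difference between genotypes in the response of single transporters at 30 min was not resolved, and for 120 min it was not tested.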

How the data were processed

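RNA was measured in 10 single-end libraries made with a kit that does not mark strand, per the labels' protocols. The authors deposited 1 table of RPKM values with 1 column per library. TopHat2 2.0.12, HTSeq 0.6.1 and TopHat are named, with mm10 and GRCm38 as builds, per the submitters' processing notes, which give no roles here; the gene lengths behind RPKM are likewise not given. Each gene listed reaches a mean of 1 RPKM in some group.

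RPKM are not counts, so no count model was used. Values were tested as log2(RPKM + 1) over 12203 genes averaging 0.5 RPKM or more (all 172 members passed), with limma 3.58.1 in R 4.3.3 (1 mean per group, 4 residual degrees of freedom, mean-variance trend; for genotype over all times an additive model with time, 6 degrees of freedom). Tests were two-sided, with Benjamini-Hochberg adjustment over all genes tested and a threshold of 0.05. The fit was tested on simulated data. Multiplying RPKM by the exon length of GENCODE M21 (12567 of 12637 identifiers found) gave read numbers within 0.01 of whole for 58.9% to 60.5% of values under 200 reads, from which depths of 4.50 to 13.3 M reads were recovered; depth limits the low genes, and read numbers are approximate.

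Classes follow the Slc family number. Genes were named by rule: the 12 largest called changes in each direction for each time comparison, up to 10 called members in each direction for each genotype comparison, the highest member of each class, and well-known T cell carriers; genes of the other lists, and Slc25a5 and Slc38a7, were picked after their values were seen. The members and lists were chosen with earlier results of these data known, and the TGGGAA motif was added after the values were seen. Groups follow the sample descriptions; title and description give the mutant 120 min library different replicate numbers. Alternatives were another pseudocount (0.1, 0.5), no filter or a mean of at least 2 RPKM, median-ratio scaling, quantile normalization, the compared groups alone, the replicate number as a block and leaving out each library. A gene that the naming rule selects is not reported here.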

Additional observations from a re-analysis of the deposited data

Results flagged for a closer look

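For 6 of the 77 named members, at a single time each, the genotypes moved in opposite directions. All libraries of one genotype lay above all of its 0 min libraries, and all libraries of the other lay below all of its own. This was at 30 min for 4 genes and at 120 min for 2, and did not hold at every time (Slc52a2 was below its 0 min levels in both genotypes at 120 min). With so few libraries per group, such separation can arise without any effect of genotype. The share of all genes with this pattern was not counted, so the 6 genes are a description only. On the log2(RPKM + 1) scale, the 30 min response of mutant minus WT cells was 0.71 for Slc52a2, 0.30 for the phosphate carrier Slc20a2, -0.53 for the bicarbonate cotransporter Slc4a7 and -0.39 for Slc35e2. Tested as an interaction in limma, none of these 4 passed (adjusted p of at least 0.876). At 120 min the difference was -0.57 for Slc38a1, which read 28.6 RPKM in WT, above its 0 min libraries, and 15.2 RPKM in mutant cells, below its 0 min libraries. For Slc43a2, which encodes the amino acid carrier Lat4, it was -0.67, with 17.7 RPKM in WT and 8.72 RPKM in mutant cells. With 1 library per genotype at 120 min, these 2 differences were not tested.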

How the results depend on the processing

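Among results for named members that the main or the alternative fit called, only Slc37a1 at 120 min changed direction (0.10 after median-ratio scaling, adjusted p = 0.470). Changes of direction in results called by neither fit were not counted. Over 149 results for named members and 2655 alternative values, 2459 kept their side of the threshold, and their direction where called. The call was lost in 184 and gained in 11. Of 120 called results, 86 held under every alternative and 105 under every one other than leaving out a library. At 30 min 14 of 25 named calls, at 120 min 33 of 40 and for genotype over all times 15 of 20 held throughout. Fitting only the compared groups changed the count from 19 to 7 at 30 min in WT, from 7 to 0 in mutant cells, from 4 to 1 for genotype at 0 min and from 7 to 1 for genotype at 30 min. With the replicate number as a block these were 29 at 30 min in WT, 16 in mutant cells and 13 for genotype at 30 min; all calls at 30 min were 51, at 120 min 128, from 30 to 120 min 106, by genotype over all times 26 and by genotype at 0 min 6, and the difference of responses stayed at 0. The difference between replicates 1 and 2 of 1 group correlated with that of another group with r of 0.037 to 0.230. All 6 pairs of groups gave a positive r, not all above 0.1. The main fit did not take the numbers as pairs, and whether they mark a shared batch was not tested. The untested count of members past 2-fold at 120 min went from 4 to 16 with a pseudocount of 0.1 and to 11 with 0.5. Leaving out 1 library gave 16 to 36 calls at 30 min, 89 to 125 at 120 min, 54 to 94 from 30 to 120 min (54 without the mutant 120 min library), 1 to 19 at 30 min in WT, 0 to 7 in mutant cells, 16 to 22 by genotype over all times, 1 to 4 at 0 min, 1 to 7 at 30 min and 0 to 0 for the difference of responses. The largest losses came without any 1 of the libraries compared: in WT at 30 min 3, 1, 1 and 1 members remained called without WT 0 min replicate 1, 0 min replicate 2, 30 min replicate 1 and 30 min replicate 2, and in mutant cells 1, 0, 0 and 4 without the same mutant libraries. The cause was not tested beyond the smaller number of libraries.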

Other observations

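ABC transporters, which pump lipids, peptides and drugs with ATP, were called lower more often than higher. All genes tested were also called lower more often in RPKM, but not after median-ratio scaling. Of 26 listed, 21 were measured. At 30 min 0 rose and 2 fell, against 19.0% of all genes called (6.51% higher and 12.5% lower). At 120 min 4 rose and 12 fell, against 59.7% of all genes (19.3% higher and 40.4% lower). After median-ratio scaling 5 rose and 10 fell, against 3650 higher and 3650 lower of all 12203 genes. The risers at 120 min were the cholesterol exporters Abcg1 and Abca1, the multidrug pump Abcb1a and the lysosomal peptide transporter Abcb9. Abcg1 read 24.99 and 21.8 RPKM in WT against 24.4 and 25.2 RPKM in mutant cells at 0 min, 34.6 and 31.7 against 31.2 and 23.6 RPKM at 30 min, and 52.6 against 84.3 RPKM at 120 min. The drug pump gene Abcb1a read 2.41 and 2.69 RPKM in WT against 2.26 and 2.15 RPKM in mutant cells at 0 min, 2.71 and 2.70 against 1.78 and 2.09 RPKM at 30 min, and 9.66 against 5.85 RPKM at 120 min. Their relative changes at 120 min were 1.75 and 1.66 (limma adjusted p = 1.57e-04 and 1.51e-04). By genotype 5 were higher and 0 lower in mutant cells (9.42% of all genes called, 6.19% higher and 3.24% lower). Abcg2, another drug pump, read 0.429 to 1.13 RPKM in WT and 3.35 to 4.85 RPKM in mutant libraries (1.54, adjusted p = 1.03e-04).

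Partner proteins and carriers with other names were split. Of 31 listed 23 were measured. At 30 min 1 rose and 3 fell, against 6.51% of all genes higher and 12.5% lower. At 120 min 5 rose and 8 fell, against 19.3% of all genes higher and 40.4% lower. After median-ratio scaling 10 rose and 6 fell, against 3650 higher and 3650 lower of all 12203 genes. Tfrc, the transferrin receptor that brings in iron, read 9.43 and 9.20 RPKM in WT against 9.62 and 10.8 RPKM in mutant cells at 0 min, 26.7 and 24.2 against 19.3 and 19.3 RPKM at 30 min, and 19.3 against 32.7 RPKM at 120 min, and rose by 1.24 at 30 min (limma adjusted p = 0.00103). Emb, a chaperone of monocarboxylate carriers, read 67.1 and 99.97 RPKM in WT against 82.5 and 108 RPKM in mutant cells at 0 min, 109.6 and 125 against 101 and 118 RPKM at 30 min, and 305 against 258 RPKM at 120 min, and rose by 1.98 at 120 min (adjusted p = 3.99e-04). Its relative Bsg, the usual chaperone of Mct1, fell at 120 min, with a change of -0.36 relative to all genes (adjusted p = 0.00756). Sfxn1, a mitochondrial serine carrier, read 13.98 and 16.8 RPKM in WT against 25.1 and 21.7 RPKM in mutant cells at 0 min, 10.8 and 12.5 against 17.3 and 21.3 RPKM at 30 min, and 2.71 against 4.60 RPKM at 120 min, and fell, with a change of -1.81 at 120 min (adjusted p = 5.11e-05).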
